A study of Canis lupus familiaris with 29 samples.

Results

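Lymph nodes of dogs with untreated, newly found large B-cell lymphoma (diffuse type by the labels) were compared before and on the fourth day of treatment with valspodar, the oral ABC transporter inhibitor. The libraries were chosen by their labels, as every node library of the valspodar group, and were paired by dog. There were 18 such libraries of 29 in the series, 9 from Day 0 and 9 from Day 4, and they came from 9 of the 15 dogs in it. Of 24580 genes in the deposited table, 11650 had a mean of at least 1 FPKM (sequenced fragments scaled to the exon length of a gene and to the mapped fragments of its library) over these 18 libraries and were tested. A further 6200 genes were at 0 in all 18.

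The dogs were pets with spontaneous disease and no engineered allele, and all 9 received valspodar by mouth in 2 doses a day of 7.5 mg/kg each. The Day 4 node was taken before the first doxorubicin dose. Their ages ran from 3.8 to 11.6 years with a median of 6.7, and they were 4 Golden Retrievers, 2 Labrador Retrievers, a Vizsla, a Standard Poodle and an English Bulldog. There were 4 spayed females, 4 neutered males and an intact male. Dogs are named by the identifiers of the labels, MN02, MN03, MN06, MN07, MN10, PD01, PD03, PD05 and PENN03. The comparison group was 5 placebo dogs with both days, MN05, MN08, MN09, PENN04 and PENN05, given capsules without the drug on the same schedule, and the 4 with a recorded age were 5.3 to 10.4 years old. Those 4 were 2 Vizslas, a Beagle and a Labrador Retriever, 3 of them spayed females and 1 an intact male, and the breed and sex of PENN04 were not recorded. The placebo dogs of known breed thus held no Golden Retriever, the breed of 4 of the 9 valspodar dogs. The histology methods of the study describe incisional wedges at Day 0 and tru-cut samples at Day 4, and its RNA methods name biopsies of the same days without giving their kind. Within the valspodar group the drug, the elapsed days and any difference in the kind of biopsy therefore cannot be told apart, whereas the placebo dogs were sampled on the same schedule without the drug.

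ABC transporters are membrane pumps that use ATP to move lipids, peptides and drugs across membranes, and ABCB1, the transporter that valspodar blocks, exports many chemotherapy agents from cells. Valspodar is a relative of cyclosporin that lacks its immunosuppressive action. A lymphomatous node is a mixture of malignant B cells with macrophages, T cells, neutrophils and stroma, and in bulk RNA fewer cells of a type and less RNA per cell cannot be told apart. The comparison asked whether the inhibitor altered gene expression across the whole node.

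The files name genes by Ensembl identifier only. Symbols were available for 23 of 28 genes in the supplementary tables of the study, and through these 21 of the 510 genes in the 29 pathway and cell type lists used here were matched. No B cell marker, ABC transporter or lymphoid progenitor marker was among them, so the B cell label of the tissue was not checked against its markers. The 19 genes that the study lists for the valspodar group were chosen on these same samples, and their direction is not independent evidence. The remaining 9 genes of those tables, also chosen by the study on samples of this series, are described with them.

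No read counts accompany FPKM values, but the steps between low values gave the depth of each library relative to the median of the 18. Relative depth was 0.281 for the Day 4 library of MN02 and between 0.871 and 1.80 for the other 17. On genes whose lowest value repeated in 5 or more other libraries, from 86.6% to 94.6% of values lay within 0.05 of a whole step. Genes above 0 ranged from 14066, in the Day 4 library of MN02, to 15837. The 10 most abundant genes held between 9.86% and 32.7% of all FPKM, the highest share being that of PD05 at Day 4.

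No gene passed the test between Day 0 and Day 4. In limma's paired fit on log2(FPKM + 1), 0 of 11650 genes (0.0%) had a Benjamini-Hochberg adjusted p under 0.05, and the smallest adjusted p was 0.435. At an unadjusted p under 0.05 there were 574 genes (4.93%) higher and 698 genes (5.99%) lower at Day 4. Under quantile normalization the unadjusted split was 430 higher and 868 lower. The standard error of the change had a median of 0.09 on the log2 scale, the half-width of its 95% interval had a median of 0.21, a factor of 1.15, and for 94.1% of the genes the interval lay within a 2-fold difference in either direction. These intervals are not adjusted for the number of genes. The mean change was over 2-fold higher for 80 genes and over 2-fold lower for 28.

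A small number of genes differed in the same direction in every dog, by modest amounts. There were 44 genes (0.378%) higher at Day 4 in all 9 dogs and 90 genes (0.773%) lower in all 9. With quantile normalization the counts were 31 and 91, and with median-ratio scaling 46 and 86. The mean change of the 44 genes ran from 0.13 to 0.97 on the log2 scale with a median of 0.33, and that of the 90 genes from -0.77 to -0.09 with a median of -0.19. The placebo dogs played no part in this choice. Their mean change was above 0 for 39 of the 44 genes (88.6%), against 49.6% of all genes tested, and below 0 for 69 of the 90 (76.7%), against 49.6%. All 5 placebo dogs were higher for 4 of the 44 (9.09%, against 583 of the 11650), and all 5 were lower for 4 of the 90 (4.44%, against 422 of the 11650). Without placebo dog PENN04 the mean was above 0 for 31 of the 44 (70.5%, against 52.3% of all genes) and below 0 for 49 of the 90 (54.4%, against 46.8%). No test was run on these shares.

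The genes of smallest p described here have no symbol in the tables used here. ENSCAFG00000011744 ran from 8.81 to 21.8 FPKM at Day 0 with a median of 12.5, and from 11.7 to 27.8 at Day 4 with a median of 17.7. Every dog was higher at Day 4, by 0.08 to 0.58 on the log2 scale, although the ranges of the days overlapped widely. Its mean change was 0.36 ± 0.06 (SE, n = 9; limma adjusted p = 0.435). The placebo change of the same gene was 0.44 ± 0.09, with all 5 placebo dogs higher. ENSCAFG00000032422 was also higher in 9 of 9 valspodar dogs, with a mean change of 0.39 ± 0.07. Its placebo change was 0.37 ± 0.37 with 2 of 5 dogs higher, PENN04 by 3.03, and the placebo mean ran from -0.30 without PENN04 to 0.63 without MN08 or PENN05.

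The genes lowest in p on the other side were small, regular shifts. ENSCAFG00000005985 stood between 53.2 and 69.6 FPKM at Day 0 with a median of 59.9, and between 42.4 and 54.5 at Day 4 with a median of 49.4. Only the lowest Day 0 values lay inside the Day 4 range. The mean change was -0.26 ± 0.05 (SE, n = 9; limma adjusted p = 0.435), and the placebo change was -0.09 ± 0.10. ENSCAFG00000010184 had a mean change of -0.25 ± 0.04, again lower in 9 of 9 dogs, and a placebo change of -0.08 ± 0.06. With each placebo dog left out in turn, the placebo mean ran from -0.23 (without PENN05) to 0.00 (without PENN04) for ENSCAFG00000005985 and from -0.13 to -0.04 (without the same dogs) for ENSCAFG00000010184. These 4 genes, at places 1, 2, 3 and 5 by p, were taken as the first 2 in each direction among genes moving one way in at least 8 of 9 dogs, so their agreement over the dogs is a description.

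Large differences were unevenly spread over the dogs. The number of genes past a 2-fold difference (over 1 on the log2(FPKM + 1) scale) ran from 107 in MN10 to 763 in PD05, with a median of 464. PD05 had 618 genes higher (5.3%) and 145 lower (1.24%), PENN03 had 518 higher (4.45%) and 146 lower (1.25%), and MN03 had 437 higher (3.75%) and 191 lower (1.64%). MN07 had 357 higher (3.06%) and 59 lower (0.506%), the most one-sided dog. PD01 had 160 higher (1.37%) and 124 lower (1.06%), and MN10 59 higher (0.506%) and 48 lower (0.412%). MN06 and PD03 had more genes lower than higher, with 205 higher (1.76%) and 259 lower (2.22%) in MN06 and 97 higher (0.833%) and 142 lower (1.22%) in PD03. In MN02, whose Day 4 library was the shallowest, 407 genes were higher (3.49%) and 248 lower (2.13%), and 96 of the 248 (38.7%) were listed at 0 at Day 4. In the other dogs the number was 19 to 41, and the share ran from 11.6% in MN06 to 39.6% in MN10 and 40.7% in MN07, so that MN02 was highest in number and not in share. The part that depth plays in the MN02 count was not tested.

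**Figure D1:**
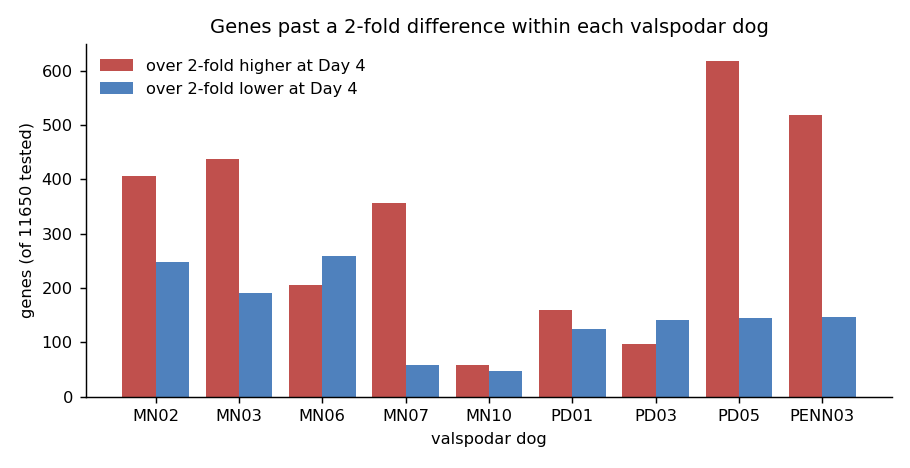
Bars give, for each valspodar dog (horizontal axis), the number of the 11650 tested genes over 2-fold higher (red) or over 2-fold lower (blue) at Day 4 than at Day 0 on the log2(FPKM + 1) scale. The totals run from 107 genes in MN10 to 763 in PD05, and MN06 and PD03 are the dogs with more genes lower than higher.

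The dogs differed in which genes these were. Of 11650 genes, 9955 were over 2-fold higher in no dog and 957 in a single dog, and 111 were over 2-fold higher in 4 or more dogs. No gene was over 2-fold higher in more than 6 dogs, and none was over 2-fold lower in more than 5. Between the 36 pairs of dogs, the share of one dog's higher genes that were also over 2-fold higher in the other had a median of 11.7% and ran from 2.43% to 58.3%. MN07 and PD05 shared 208 genes, 58.3% of the MN07 genes and 33.7% of the PD05 genes. MN03 and PENN03 shared 184 genes, 42.1% and 35.5% of their lists. PD05 and PENN03 shared 180 genes, 29.1% and 34.7%. For genes over 2-fold lower the shares had a median of 8.25% and a highest value of 25.4%. The lists differed in size (0.412% to 2.22% of all genes a dog lower, against 0.506% to 5.3% higher), with fewer genes lower than higher in 7 of the 9 dogs, so shares for the directions are not on one footing. Opposite directions were shared as well. The share of one dog's lower genes that were over 2-fold higher in another dog had a median of 11.99% over the 72 ordered pairs, with the highest share, 39.4%, for PD03 genes in MN02, in which 3.49% of all genes were higher. The share of one dog's higher genes that were over 2-fold lower in another had a median of 6.83% and a highest value of 25.4%.

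**Figure D2:**
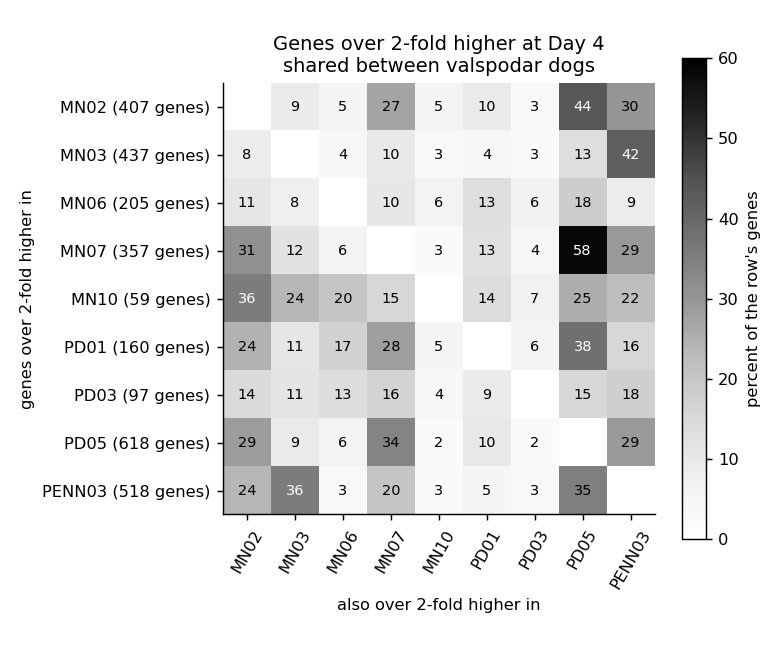
Each cell gives the percent of the genes over 2-fold higher at Day 4 in the row's valspodar dog (their number in parentheses) that were also over 2-fold higher in the column's dog. The darkest cell is MN07 against PD05 at 58.3%, and MN03 and PENN03 share 42.1% and 35.5% of their lists.

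Some of the genes higher in several valspodar dogs were also higher in placebo dogs, which took no part in choosing them, and their share differed widely between those dogs. Of the 111 genes over 2-fold higher in 4 or more valspodar dogs (0.953% of those tested), 87 (78.4%) were over 2-fold higher in placebo dog PENN04, in which 7.48% of all genes were. The shares higher were 31.5% in MN05 (2.14% of all genes), 23.4% in MN09 (1.37%), 11.7% in PENN05 (2.14%) and 4.50% in MN08 (0.730%). Some of the 111 were over 2-fold lower in every placebo dog. PENN05 had 14 lower (12.6%, against 3.29% of all genes) and 13 higher. MN08 had 8 lower (7.21%, against 1.22%) and 5 higher. Fewer were lower than higher in MN09 (8 and 26), MN05 (4 and 35) and PENN04 (3 and 87). Among the 111 genes, 45 (40.5%) were also over 2-fold lower in at least one valspodar dog, against 1025 (8.80%) of all genes. They were chosen for large changes in these same valspodar dogs, so a share above that of all genes follows in part from the choice. The mean placebo change was above 0 for 101 of the 111, against 49.6% of all genes, and for 93 of them (83.8%) without PENN04, against 52.3%.

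For the 70 genes over 2-fold lower in 3 or more valspodar dogs (0.601%), the placebo dogs held shares above those of all genes in both directions. In MN05 35.7% of them were over 2-fold higher (2.14% of all genes) and 5.71% over 2-fold lower (0.395%). In MN08 and MN09 21.4% were higher (0.730% and 1.37% of all genes) and 8.57% lower (1.22% and 1.03%). PENN04 had 18.6% higher (7.48%) and 7.14% lower (0.970%). PENN05 was the placebo dog with more of them lower, 28.6% (3.29%), than higher, 15.7% (2.14%). No test was run on the shares.

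**Figure D3:**
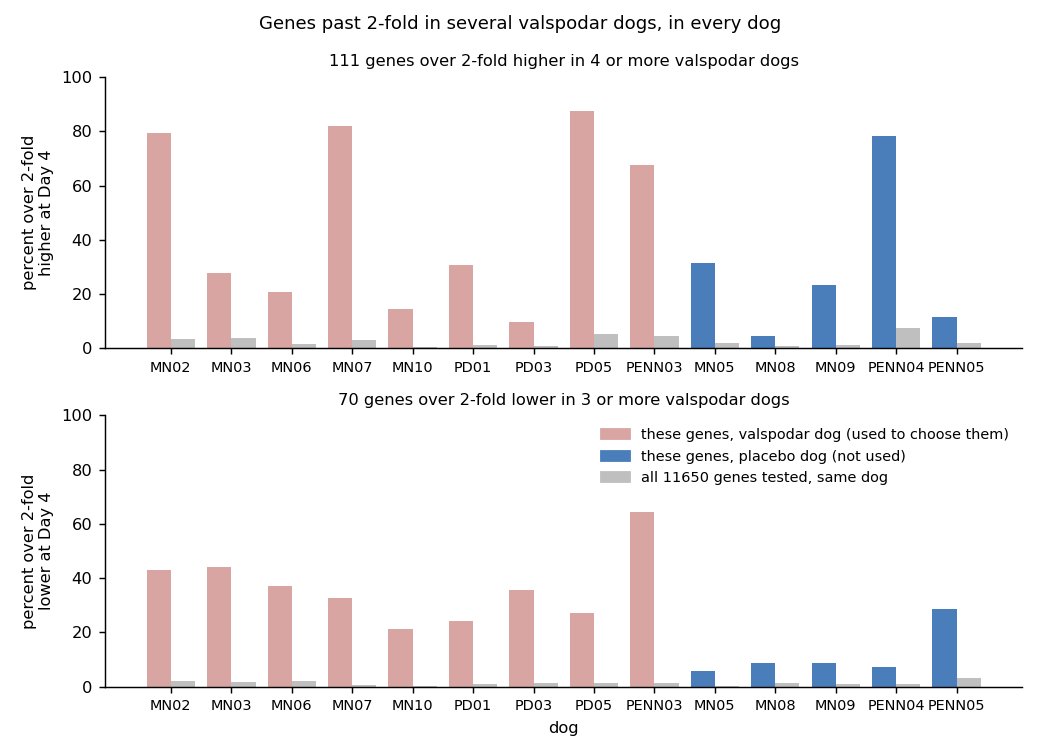
Bars give the percent of genes over 2-fold higher (upper panel, 111 genes) or lower (lower panel, 70 genes) at Day 4 in each dog, with pink for the valspodar dogs that chose the genes, blue for the placebo dogs that did not, and grey for all 11650 genes in the same dog. In the upper panel the placebo dog PENN04 stands at 78.4%, beside 67.6% to 87.4% in the valspodar dogs MN02, MN07, PD05 and PENN03.

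The study's 19 genes for the valspodar group all had a positive mean change, with a median of 0.72 on the log2 scale beside -0.01 over all genes tested. None passed the limma test, and 1 of 19, ICAM1, had an unadjusted p under 0.05, beside 4.93% of all genes in that direction. Which of them were over 2-fold higher depended on the dog. There were 15 of 19 in PENN03 (4.45% of all genes), 12 in MN03 (3.75%), and 8 in each of MN02 (3.49%), MN07 (3.06%) and PD05 (5.3%). There were 2 in PD03 (0.833%) and 1 in MN10 (0.506%), and there was none in PD01 (1.37%) or MN06 (1.76%). In MN06 6 of the 19 were over 2-fold lower (2.22% of all genes). In the placebo dogs the count higher was 13 of 19 in PENN04 (7.48% of all genes), 9 in PENN05 (2.14%), 7 in MN05 (2.14%), 4 in MN09 (1.37%) and 1 in MN08 (0.730%), and 7 were over 2-fold lower in MN09 (1.03%) and 4 in MN08 (1.22%).

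**Figure D4:**
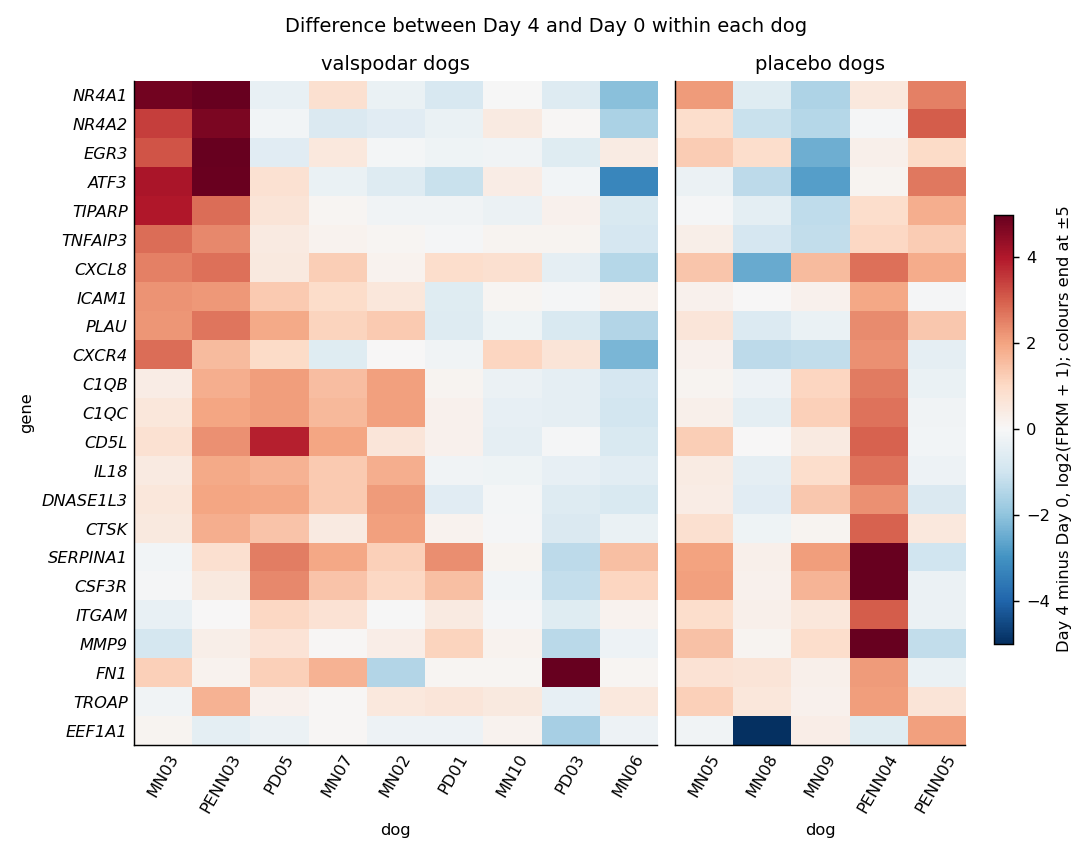
Colours give the Day 4 minus Day 0 difference in log2(FPKM + 1) for each gene with a symbol (rows) in each of the 9 valspodar dogs (left) and 5 placebo dogs (right), with red higher and blue lower at Day 4 and the scale ending at ±5. The upper rows are dark red in MN03 and PENN03, the complement rows are red in MN02, MN07, PD05 and PENN03, and placebo dog PENN04 is red for most rows.

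Immediate early genes, which cells switch on within minutes of a stimulus without making new protein first, were represented by the nuclear receptors NR4A1 and NR4A2 and the transcription factors EGR3 and ATF3 (4 of 46 genes of that list had a symbol). NR4A1 stood between 0.624 and 16.3 FPKM at Day 0 with a median of 2.26, and between 0.877 and 316 at Day 4 with a median of 1.56. Its Day 4 level was 316 FPKM in PENN03 and 109 in MN03, while the other 7 dogs lay between 0.877 and 3.01, so the days overlapped in those dogs. The mean change of NR4A1 was 0.88 ± 0.83 (SE, n = 9; limma adjusted p = 0.687), with 3 of 9 dogs higher and a median change of -0.33.

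The other members had the same dogs at the top. NR4A2 reached 124 FPKM at Day 4 in PENN03 and 79.5 in MN03, and stood between 2.17 and 9.42 in the other 7. EGR3 reached 99.98 FPKM in PENN03 and 44.1 in MN03, with 22.3 in MN06 and 0.630 to 6.05 in the remaining 6. ATF3 went from 0.574 to 48.0 FPKM in PENN03 and from 3.32 to 72.9 in MN03, and the other 7 dogs were between 0.176 and 1.69 at Day 4. The 4 genes had mean changes of 0.53 to 0.88, none with a limma adjusted p below 0.588. Without PENN03 the mean change of ATF3 was -0.03, that of NR4A1 0.17, that of NR4A2 0.07 and that of EGR3 0.31. Without MN03 they were 0.08, 0.38, 0.23 and 0.54 in the same order, and without MN06 the mean of ATF3 was 0.999.

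MN06 was the dog furthest the other way. ATF3 went from 10.2 to 0.176 FPKM, NR4A1 from 16.3 to 3.01 and NR4A2 from 25.9 to 7.93, whereas EGR3 went from 16.5 to 22.3. The Day 0 library of MN06 had the highest level of all 9 dogs at Day 0 for each of these 4 genes. The summed level of the 4 genes ran from 6.31 to 68.9 FPKM over the valspodar dogs at Day 0 and from 6.00 to 589 at Day 4. Over the placebo dogs it ran from 6.10 to 104 at Day 0 and from 7.41 to 61.0 at Day 4.

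TIPARP, an ADP-ribosyltransferase induced by the aryl hydrocarbon receptor, had the same dogs at the top. It stood between 2.66 and 27.2 FPKM at Day 0 and was 172 in MN03 and 36.3 in PENN03 at Day 4, with the other 7 dogs between 4.73 and 15.8. Its mean change was 0.71 ± 0.46 (limma adjusted p = 0.577), and it was 0.30 without MN03 and 0.45 without PENN03.

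Sample numbers in the titles begin with 11 for MN02, MN03, MN06, PD01 and PENN03 and with 12 for the other 4 dogs, and what the number marks is not stated. Within the first 5 dogs the mean change of NR4A1 was 1.63 and that of EGR3 1.65, and within the other 4 they were -0.06 and -0.20. The first series holds both MN03 and PENN03. For ICAM1 the values were 0.91 and 0.56, and for C1QC 0.77 and 0.71.

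Genes that NF-kB, the transcription factor of inflammatory signalling, is known to induce were represented by TNFAIP3, CXCL8, ICAM1 and PLAU (4 of 35). TNFAIP3, an inhibitor of NF-kB signalling, was between 7.27 and 16.2 FPKM in all 9 dogs at Day 0, a narrow range with a median of 10.2. At Day 4 it was 105 in MN03 and 63.1 in PENN03, and in the other 7 it was lowest in MN06, at 8.74, and highest in PD01, at 12.02. TNFAIP3 had a mean change of 0.58 ± 0.34 (SE, n = 9; limma adjusted p = 0.541), with 7 of 9 dogs higher, and the mean was 0.31 without MN03 and 0.36 without PENN03.

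ICAM1, the adhesion molecule that leukocyte integrins bind, had the smallest unadjusted p of the study's 19 genes. Its Day 0 levels ran from 5.92 to 21.4 FPKM with a median of 9.48, and its Day 4 levels from 5.07 to 48.3 with a median of 18.1. At Day 4 7 dogs were higher, MN03, PENN03 and PD05 by over 2-fold on the log2(FPKM + 1) scale, and PD01 and PD03 were lower. The mean change was 0.75 with a 95% interval of 0.12 to 1.39 (unadjusted, limma adjusted p = 0.437). The exact sign-flip permutation test over the 9 dogs gave a two-sided p of 0.0508.

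CXCL8, the chemokine that attracts neutrophils, ran from 0.189 to 15.7 FPKM at Day 0 and from 0.574 to 94.9 at Day 4. The highest value on either day was that of MN03, and the biggest difference on the log2 scale was in PENN03, from 0.189 to 6.97. PLAU, the urokinase protease, went from 12.2 to 59.7 FPKM in MN03, from 0.955 to 11.4 in PENN03 and from 2.60 to 12.3 in PD05, and from 5.18 to 1.24 in MN06. The mean changes were 0.77 ± 0.38 for CXCL8 and 0.68 ± 0.43 for PLAU, with limma adjusted p = 0.485 and 0.566, and without PENN03 that of PLAU was 0.43. The summed level of the 4 NF-kB genes ran from 19.8 to 51.9 FPKM at Day 0 and from 19.7 to 308 at Day 4. Over the placebo dogs it ran from 13.8 to 153 at Day 0 and from 24.8 to 59.9 at Day 4.

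CXCR4, the receptor for CXCL12 that holds lymphocytes in lymphoid tissue, was among the more abundant of the 19. It ran from 12.3 to 106 FPKM at Day 0 with a median of 40.3, and from 3.53 to 651 at Day 4 with a median of 54.2. MN03 went from 93.6 to 651 and PENN03 from 106 to 317, and MN06 from 21.1 to 3.53. Its mean change was 0.44 ± 0.42 (SE, n = 9; limma adjusted p = 0.689), which became 0.14 without MN03 and 0.78 without MN06.

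**Figure D5:**
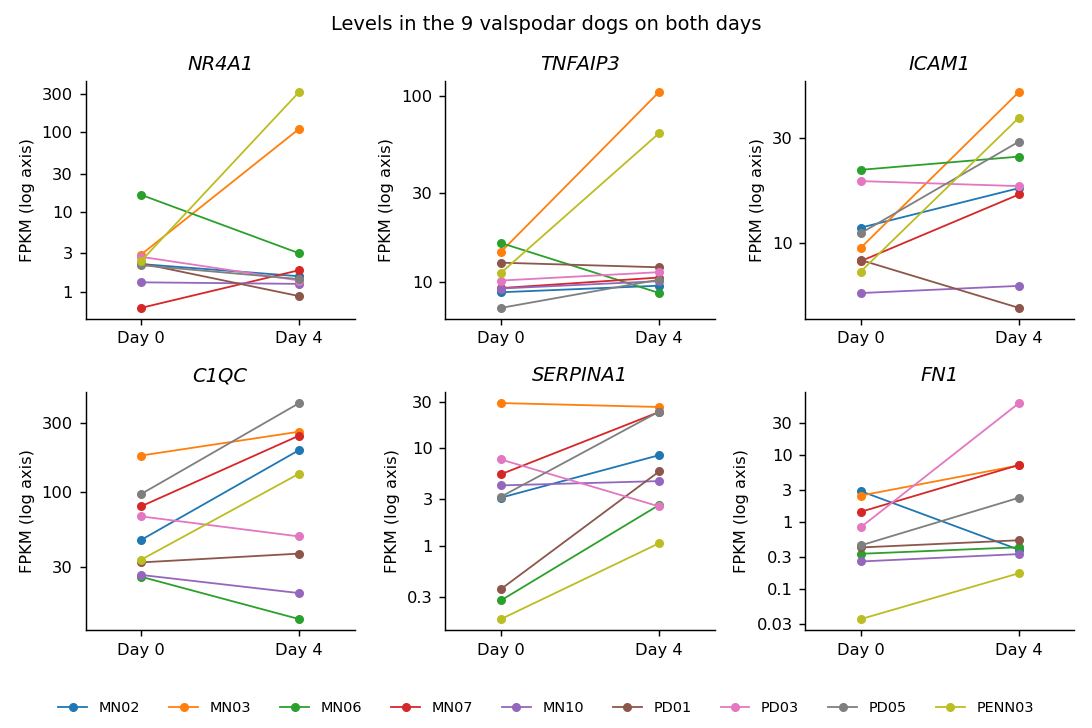
Lines join the Day 0 and Day 4 levels (FPKM, log axes) of 6 genes in the 9 valspodar dogs, one colour per dog. NR4A1 and TNFAIP3 separate MN03 and PENN03 from the other dogs at Day 4 (109 and 316 FPKM for NR4A1), C1QC moves in both directions, SERPINA1 is higher in 7 of 9 dogs, and FN1 reaches 58.7 FPKM in PD03.

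All 3 macrophage genes with a symbol were over 2-fold higher in PD05, PENN03 and MN07, and 2 of them in MN02, so that PENN03 stood high here as well as for the immediate early and NF-kB genes, while MN03 had none of them over 2-fold higher. C1QB and C1QC encode chains of the complement protein C1q, which tissue macrophages make, and CD5L is a secreted macrophage protein (3 of 22 genes of the list had a symbol). C1QC ran from 25.9 to 180 FPKM at Day 0 with a median of 46.5, and from 13.1 to 415 at Day 4 with a median of 134. It was over 2-fold higher in PD05 (96.9 to 415), MN02 (46.5 to 196), PENN03 (33.9 to 134) and MN07 (79.6 to 247). It was lower in MN06 (25.9 to 13.1), PD03 (67.9 to 49.3) and MN10 (26.6 to 19.9). C1QC had a mean change of 0.74 ± 0.35 (SE, n = 9; limma adjusted p = 0.465).

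C1QB followed C1QC dog by dog, with changes of 2.08 in PD05, 2.05 in MN02, 1.81 in PENN03 and 1.56 in MN07 on the log2 scale, and of -0.82 in MN06. CD5L was 83.2 FPKM at Day 4 in PD05, from 4.72 at Day 0, 38.7 in MN07, from 9.13, and 36.6 in PENN03, from 6.76. Its change in MN02 was 0.59, less than the 0.75 of MN03. The limma adjusted p was 0.467 for C1QB and 0.465 for CD5L, whose mean change of 0.93 was 0.56 without PD05. The summed level of the 3 macrophage genes ran from 37.5 to 271 FPKM at Day 0 with a median of 71.8, and from 19.0 to 676 at Day 4 with a median of 235, and none of them was at 0 in any library. Over the placebo dogs it ran from 15.7 to 198 at Day 0 with a median of 89.5. At Day 4 it ran from 36.8 to 170 there, with a median of 111. Placebo dog PENN04 had changes of 2.70 for C1QC, 2.59 for C1QB and 2.96 for CD5L, while PENN05 was lower for all of them.

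Other genes that macrophages and dendritic cells express were DNASE1L3, IL18 and CTSK, and the first 2 had their biggest changes in the same 4 dogs. DNASE1L3, a secreted nuclease that degrades DNA in chromatin, went from 57.8 to 257 FPKM in MN02, 60.3 to 230 in PD05, 68.9 to 171 in MN07 and 17.6 to 71.7 in PENN03, and from 43.7 to 25.6 in MN06. IL18, an inflammasome-processed cytokine, had changes of 1.88 in PENN03, 1.80 in MN02, 1.75 in PD05 and 1.32 in MN07, and between -0.54 and 0.46 in the other 5 dogs. CTSK, the cathepsin that degrades collagen, had changes of 2.04 in MN02, 1.81 in PENN03 and 1.41 in PD05, against 0.50 in MN03 and 0.43 in MN07, and MN03 had its highest level on both days (121 and 172 FPKM). The mean changes were 0.65 ± 0.35 for DNASE1L3, 0.65 ± 0.30 for IL18 and 0.58 ± 0.28 for CTSK, with limma adjusted p from 0.464 to 0.514.

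Of the neutrophil genes 4 of 17 had a symbol, and their unadjusted limma p was 0.0197 for SERPINA1, 0.043 for CSF3R, 0.409 for ITGAM and 0.943 for MMP9. SERPINA1, the inhibitor of neutrophil elastase and the gene with the smallest p of those with a symbol, ran from 0.178 to 29.2 FPKM at Day 0 with a median of 3.19, and from 1.07 to 26.6 at Day 4 with a median of 5.81. On the log2(FPKM + 1) scale it was over 2-fold higher in MN02, MN06, MN07, PD01 and PD05 and over 2-fold lower in PD03. MN03 had the highest level on both days with little difference between them (29.2 and 26.6). The mean change was 1.01 with a 95% interval of 0.19 to 1.82 (unadjusted, limma adjusted p = 0.435). The exact sign-flip permutation test over the 9 dogs gave a two-sided p of 0.0547. By unadjusted p it ranked at place 524 of the 11650 genes.

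CSF3R, the receptor for granulocyte colony-stimulating factor, had its Day 4 level at 9.82 FPKM in MN07 (3.06 at Day 0), 9.60 in PD05 (1.02) and 1.20 in PD03 (4.07). Its mean change was 0.73 ± 0.32 (SE, n = 9; limma adjusted p = 0.451), and 1.31 with a pseudocount of 0.1 in place of 1. ITGAM, an integrin chain of myeloid cells, and MMP9, the gelatinase stored in neutrophil granules, had mean changes of 0.15 ± 0.17 and 0.02 ± 0.23, and with that pseudocount 0.37 and 0.23. The summed level of the 4 genes ran from 0.557 to 55.1 FPKM at Day 0 and from 2.16 to 47.1 at Day 4, with none at 0 in any library. The part that neutrophils or macrophages in the biopsies play in the other differences was not tested.

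Some means were set by a single dog. FN1, which encodes the matrix protein fibronectin, was 58.7 FPKM at Day 4 in PD03 after 0.824 at Day 0, while the other 8 dogs were between 0.170 and 7.01 at Day 4. Its mean change was 0.90 ± 0.53 (limma adjusted p = 0.538), and without PD03 it was 0.39. The mean change of FN1 was 2.01 in the 4 dogs of the second number series, which holds PD03, and 0.02 in the first.

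ENSCAFG00000029302 was 1184 FPKM at Day 4 in MN02 after 18.8 at Day 0, against 0.291 to 53.9 at Day 4 in the other 8 dogs. ENSCAFG00000030746 was 219 FPKM in MN02 after 3.11, against 1.32 to 8.36 in the other 8. Without MN02 their mean changes were 0.12 and 0.10, in place of 0.76 and 0.72. Both were higher at Day 4 in all 5 placebo dogs, with placebo changes of 1.23 ± 0.66 and 1.099 ± 0.636. The MN02 values came from the library of lowest relative depth.

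ENSCAFG00000018586 stood at separate levels by dog. It was over 2-fold higher in MN02 (79.9 to 774 FPKM), MN03 (73.1 to 346) and PD03 (42.0 to 280), and differed by at most 0.34 on the log2 scale in the other 6. Its mean change of 0.82 was 0.51 without MN02. In PD05 it was at 0.140 and 0.237 FPKM, where no other valspodar dog was below 42.0. ENSCAFG00000028460 was listed at 0 in MN02 at Day 4 after 40.1 FPKM at Day 0, and the other 8 dogs were at 17.1 to 121 at Day 4. ENSCAFG00000024514 went from 54.7 to 311 FPKM in PD03, and from 549 to 312 in PENN03, which had the highest level at Day 0.

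TROAP, a spindle protein of dividing cells and the only gene of the 40 in the proliferation list with a symbol, ran from 3.53 to 22.4 FPKM at Day 0 and from 5.98 to 33.5 at Day 4. It was higher in 7 of 9 dogs, most in PENN03 (9.44 to 33.5), and the mean change was 0.40 ± 0.18 (limma adjusted p = 0.458), or 0.23 without PENN03. EEF1A1, the translation elongation factor, was listed at 242 FPKM in PD03 and 233 in PD05 at Day 0 and between 1.48 and 7.21 in the other 7 dogs. Its largest change was in PD03, to 76.8 FPKM, and without that dog the mean change was -0.15 in place of -0.31. This gene has many near-identical retrocopies, and how the fragments were divided among them could not be seen in the values.

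The change under valspodar was not shown to differ from the change under placebo for any gene. The limma interaction fit over the 28 libraries of 14 dogs gave 0 of 11650 genes at an adjusted p under 0.05, with 427 genes (3.67%) at an unadjusted p under 0.05 and a smallest adjusted p of 0.999. For C1QC the difference between the changes (valspodar minus placebo) was 0.05 with a 95% interval of -1.28 to 1.37, and for IL18 it was -0.00 (-1.20 to 1.20). For ICAM1 it was 0.29 (-0.73 to 1.30). The intervals of C1QC and IL18 hold differences of 2-fold in either direction and that of ICAM1 a 2-fold difference toward valspodar, so the data do not show that the groups acted alike.

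These differences depended on single dogs of both groups. With each placebo dog left out in turn, the valspodar mean minus the placebo mean ran from -0.25 (without MN08) to 0.55 (without PENN04) for C1QC, from -0.28 (without MN08) to 0.51 (without PENN04) for IL18, and from 0.16 (without PENN05) to 0.65 (without PENN04) for ICAM1. Without PENN05 those of C1QC and IL18 were -0.17 and -0.23. Single valspodar dogs moved the valspodar means as well. For ICAM1 that mean ran from 0.57 (without MN03) to 0.93 (without PD01), beside a placebo mean of 0.47. For C1QC it ran from 0.57 (without PD05) to 0.95 (without MN06), beside 0.69. For IL18 it ran from 0.50 (without PENN03) to 0.80 (without MN06), beside 0.65.

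Among the named genes the 3 widest gaps between the groups were on the side of placebo. All 3 genes belong to the 9 other genes of the study's tables, which were also chosen on samples of this series. The ranking of the gaps is therefore not independent evidence. ENSCAFG00000028460 had a difference of -1.90 (-3.62 to -0.18, unadjusted), higher in 5 of 5 placebo dogs and in 4 of 9 valspodar dogs (limma adjusted p = 0.999), and the value listed at 0 in MN02 is part of it. For MMP9 the mean placebo change was 1.44 ± 0.68 and the difference -1.42 (-3.22 to 0.38), and for CSF3R they were 1.75 ± 0.61 and -1.02 (-2.64 to 0.59). For SERPINA1 they were 1.72 ± 0.68 and -0.71 (-2.53 to 1.11). PENN04 had a change of 5.90 for MMP9, 5.09 for CSF3R and 5.18 for SERPINA1 (2.71 to 134 FPKM), and PENN05 was lower for all of them. Without PENN04 the placebo means were 0.32, 0.91 and 0.85, and the differences -0.30, -0.19 and 0.16, while without PENN05 the differences were -2.08, -1.54 and -1.39.

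The next widest gaps were on the side of valspodar. ENSCAFG00000024514 had a difference of 0.94 (-0.19 to 2.08), with 0 of 5 placebo dogs higher, and without placebo dog MN09 it was 0.498. For EEF1A1 the difference was 0.88 (-1.45 to 3.20), and without MN08, in which the gene was lower by 7.52 on the log2 scale, it was -0.71, and without PENN05 1.68. For ATF3 it was 0.85 (-1.70 to 3.40), ranging from 0.24 without MN09 to 1.58 without PENN05. Valspodar dogs mattered too. The mean valspodar change of ENSCAFG00000024514, 0.03, was -0.275 without PD03, and that of ATF3, 0.53, was -0.03 without PENN03.

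NR4A1 had a difference between the groups of 0.28 (-2.45 to 3.001), whose sign rested on single dogs of either group. With a placebo dog left out, it was -0.26 without MN09, -0.03 without MN08, 0.66 without MN05 and 0.75 without PENN05. The mean valspodar change was 0.17 without PENN03 and 0.38 without MN03, both below the mean placebo change of 0.60. Placebo dogs PENN05 (1.47 to 13.1 FPKM) and MN05 (2.16 to 12.8) were higher at Day 4 and MN09 was lower (34.5 to 11.1).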

How the data were processed

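RNA of 18 valspodar and 10 placebo node libraries was used. Per the labels and the methods, the authors trimmed paired-end reads with Trimmomatic 0.33, mapped them to CanFam3 with HISAT2 2.0.2, estimated abundances with Cuffquant (Cufflinks 2.2.1) with multi-read correction, and deposited FPKM values from Cuffnorm, by library, without pooling. Strandedness is not given in the sources used here. Values were analysed as log2(FPKM + 1), which understates changes of low genes, in genes whose average over the 18 valspodar libraries reached 1 FPKM. Means at 1.00 FPKM lay on either side of that limit. Changes were fitted with limma 3.58.1 (R 4.3.3, eBayes with trend, dog as a block), with Benjamini-Hochberg adjustment at 0.05. Single genes were also tested by exact two-sided sign flips over 9 dogs. The fit was tested on simulated data. Summaries used Python 3.11.15, numpy 2.4.6, pandas 2.3.3 and matplotlib 3.10.9.

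By the labels, each pair is 1 dog sampled on both days. Their deviations from the group means correlated with a median of 0.53 (0.20 in MN02 to 0.68, 9 pairs), against -0.06 between different dogs. Relative depth came from ratios of genes under 0.3 FPKM to MN06 at Day 0. Counts could not be recovered, which leaves out count models and counting intervals.

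Named genes were the 28 genes of the study's supplementary tables, which include every listed gene with a symbol, and the 2 genes of smallest p in each direction among those moving one way in at least 8 of 9 dogs. The members, lists, tests and alternatives were chosen with earlier results of these data known. Alternatives were a pseudocount of 0.1, no filter, a minimum of 5 FPKM, quantile and median-ratio scaling, other treatments of the dog, robust eBayes, and each dog left out. The genes past 2-fold in several dogs and the split by sample number were chosen after seeing the data. The study describes a further pre-treatment valspodar sample, which is not among the 29 samples of the series. Placebo dog PD04, with a Day 0 library only, was not used.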

Additional observations from a re-analysis of the deposited data

Results flagged for a closer look

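In 39 sets of 9 dogs searched (named gene changes, genes past 2-fold, and 3 library measures on each day), 8 held a dog whose gap to its nearest neighbour, as a share of the whole range, exceeded the 95% limit of Dixon's test. Chance gives about 1 in 20 such sets, or 1.95 of 39, if the sets are independent and their values normally distributed. The sets here share dogs and libraries, and most are genes that the study chose on these samples. The 8 beside 1.95 is therefore no measure of an excess over chance. Of these, 3 concern MN02, whose Day 4 library was the shallowest: the gap was 0.874 of the range for ENSCAFG00000030746, 0.802 for ENSCAFG00000029302 and 0.760 for ENSCAFG00000028460, which was listed at 0 there. The part of depth in these values was not tested. Another 4 concern PD03: the gap was 0.640 for EEF1A1, 0.527 for ENSCAFG00000024514 and 0.506 for FN1, and 0.623 for the share of FPKM in the 10 most abundant genes at Day 0, which was 22.0%. The last is PENN03 for TROAP, with a gap of 0.519. No named gene had a change that differed between valspodar and placebo by the limma interaction test.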

How the results depend on the processing

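The paired limma count stayed at 0 genes, and the interaction count at 0, under every alternative that was run for each. The lowest adjusted p of the paired comparison among all alternatives was 0.0729, with the dog as a random effect, where 1320 genes had an unadjusted p under 0.05. With no replicate block, as unpaired groups, 144 genes did, against 1272 in the paired fit, and 42 against 427 for the interaction. Leaving out a dog gave 814 genes (without PENN03) to 1514 (without MN03), and for the interaction 300 (without MN05) to 525 (without PENN05). No filter gave 1790 of 18380 genes, a minimum of 5 FPKM 1018 of 9054. Within the 5 dogs of the first number series, added after seeing the data, 952 genes did, and within the other 4 dogs 537.

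Of 500 changes of the 28 tabulated genes under an alternative, 490 kept their direction, none crossed the threshold, and 10 of 4 genes turned. MMP9 was -0.0729 under quantile normalization and below 0 without MN02, MN10, PD01, PD05 or PENN03. With a dog left out, MMP9 ran from -0.121 (PD01) to 0.186 (PD03), ATF3 from -0.0269 (PENN03) to 0.999 (MN06), ENSCAFG00000024514 from -0.275 (PD03) to 0.169 (PD05), and ENSCAFG00000028460 from -0.624 (PENN03) to 0.185 (MN02). Of the 28 mean changes, 19 moved by over 1.5 times or turned when 1 dog was left out, and 5 with a pseudocount of 0.1, ATF3 to 0.33 and ENSCAFG00000028460 to -0.79 among them. Under quantile normalization ITGAM went to 0.09. With a dog left out ITGAM ran from 0.035 (PD05) to 0.24 (PD03). FPKM values without counts limit what can be said of low genes, most in MN02.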
